A study of Arabidopsis thaliana with 20 samples.

Results

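AGL24 (AT4G24540) and FD (AT4G35900) are regulators of the inflorescence meristem, chosen here by name as 2 of the 17197 genes named on the array. The 2 genes were chosen with earlier results of these data known, so counts of calls among them test no enrichment. Each gene is represented by 1 of the 30194 probes, and both probes gave a value on all 20 arrays, none of them at a limit of the scale. AGL24 is a MADS-box transcription factor that promotes flowering together with its partner SOC1 and keeps a meristem in its inflorescence state. In a young flower it must be switched off, and AP1 is known as one of its direct repressors. FD is a bZIP transcription factor of the shoot apex that binds the mobile flowering signal FT, and the complex turns on floral genes, AP1 among them. FD also partners TFL1, the relative of FT that maintains the inflorescence.

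The plants were 35S:AP1-GR ap1 cal, that is, mutants without AP1 and its close homologue CAL, which form masses of inflorescence-like meristems, and which carry AP1 fused to the hormone-binding domain of the glucocorticoid receptor under the broadly active 35S promoter. Dexamethasone at 1 µM lets the fusion protein enter the nucleus, so that flowers start together. All samples shared this genotype and treatment, and sets left without dexamethasone are not analysed here, so effects of AP1, of the treatment and of time cannot be told apart. Meristem-rich tissue of about 25 plants was pooled per time point on days 0, 1, 2, 3, 4 and 5, in 4 independent sets. Each of the 20 two-colour arrays set a later day against the day before it in the same set, so that 5 intervals have 4 arrays each and the dyes are swapped between sets.

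Changes are given on the log10 scale, later day over earlier day, so that a value near -0.30 is close to a halving, and errors are SD over the 4 sets. The log base and the direction are readings of the deposited values. As deposited, the AGL24 ratio was below 0 on 8 of 10 arrays with the later day in Cy5 and above 0 on 9 of 10 arrays with the later day in Cy3, so that it changed sign with the dyes. FD was below 0 on 5 of 10 and above 0 on 9 of 10 such arrays. The ratios were taken as Cy5 over Cy3, and with the opposite order every lower value given here would be a higher one. The direction was earlier called likely partly because AGL24 and FD were lower by day 5, so their direction is no independent evidence. In bulk tissue, fewer cells of a type and less RNA per cell cannot be told apart.

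From day 0 to day 1, FD fell and AGL24 did not pass the test. FD measured -0.36, -0.51, -0.30 and -0.42 in sets 1 to 4. All sets were lower on day 1, and among all probes of the same array FD stood in the lowest 1.2% to 4.4%. The mean of -0.40 ± 0.093 left 40.1% of the day 0 level, with a 95% interval of 31.8% to 50.7% (adjusted p = 1.61e-04 by limma). AGL24 measured -0.15, -0.19, -0.26 and -0.24. It was also lower in every set, and its values did not overlap those of FD, the lowest AGL24 value being -0.26 and the highest FD value -0.30. The AGL24 mean of -0.21 ± 0.053 left 62.0% of the day 0 level (46.0% to 83.5%), with an adjusted p of 0.0829. Thus 1 of the 2 genes was called, where 2.17% of the 28633 features tested were called lower. FD kept its call without any 1 of the sets (adjusted p between 1.90e-04 and 0.0230), but not with limma on the 4 arrays of the interval alone (adjusted p = 0.157).

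**Figure D1:**
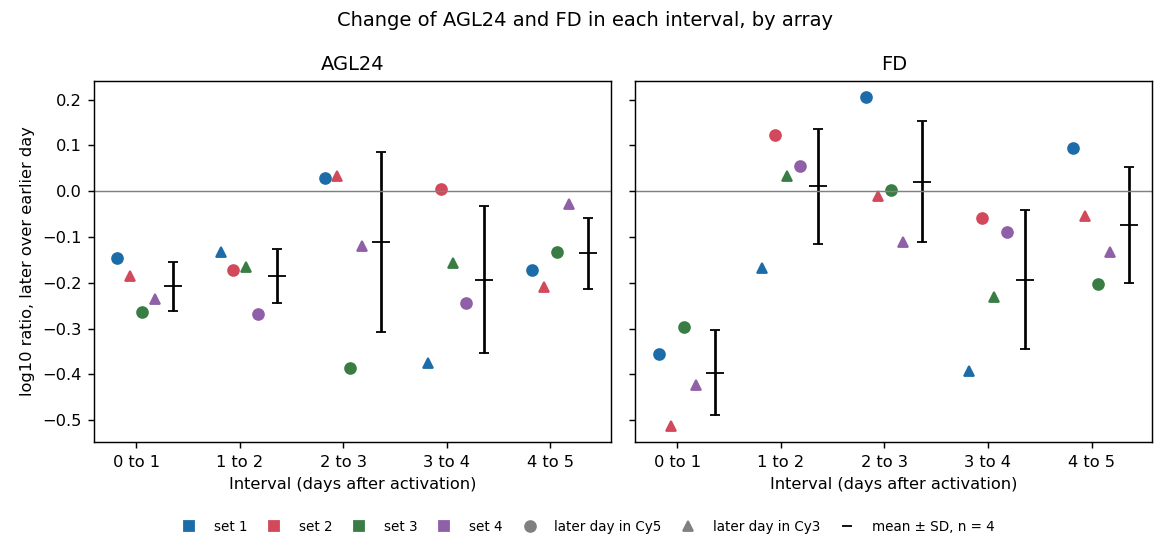
Change of AGL24 (left) and FD (right) in each interval, as the log10 ratio of the later over the earlier day; each point is 1 array, coloured by set, with circles for the later day in Cy5 and triangles for the later day in Cy3, and black bars give mean ± SD (n = 4). FD is far below 0 in all 4 sets from day 0 to day 1 and around 0 in the next 2 intervals, while the AGL24 means lie between -0.21 and -0.11 in the 5 intervals, none of them called, the one from day 2 to day 3 resting mostly on set 3.

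From day 1 to day 2 AGL24 was lower again in every set and FD had no common direction. AGL24 measured -0.13, -0.17, -0.17 and -0.27 in sets 1 to 4. The sets lay close together, with a mean of -0.19 ± 0.058 that did not pass the test (adjusted p = 0.187). FD measured -0.17, 0.12, 0.03 and 0.06, lower in set 1 and higher in the other sets. Its mean of 0.01 ± 0.13 put day 2 at 103% of day 1, with a 95% interval of 81.3% to 130% (adjusted p = 0.955). Neither gene was called, and 0.416% of all features were called lower.

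From day 2 to day 3 neither gene had 1 direction in all sets. AGL24 measured 0.03, 0.03, -0.39 and -0.12, so that sets 1 and 2 were slightly higher and set 3 was below all but 0.189% of the probes on its array. The mean was -0.11 ± 0.20 (adjusted p = 0.659), and without set 3 it was -0.0112. FD measured 0.20, -0.01, 0.00 and -0.11, with set 1 highest and set 4 lowest. Its mean of 0.02 ± 0.13 put day 3 at 105% of day 2, with a 95% interval of 83.2% to 133% (adjusted p = 0.949). In this interval 0.0454% of all features were called lower.

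From day 3 to day 4 both genes had the same mean, -0.19, and neither passed the test. AGL24 measured -0.38, 0.01, -0.16 and -0.24, lower in all sets but set 2 (SD 0.16, adjusted p = 0.191), and its mean ran from -0.27 to -0.12 with 1 set left out. FD measured -0.39, -0.06, -0.23 and -0.09, lower in every set and most in set 1 (SD 0.15, adjusted p = 0.0612). FD passed without set 3 (adjusted p = 0.0150), with arrays scaled to 1 spread (adjusted p = 0.0263) and with values at the limits left out (adjusted p = 0.0470). The share of features called lower was 0.37%.

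From day 4 to day 5 AGL24 measured -0.17, -0.21, -0.13 and -0.03, lower in every set with a mean of -0.14 ± 0.078 (adjusted p = 0.418). FD measured 0.09, -0.05, -0.20 and -0.13, higher in set 1 and lower in the others, with a mean of -0.07 ± 0.13 (adjusted p = 0.610). Neither gene was called, where 0.196% of features were called lower. Over all 20 arrays AGL24 was lower on the later day on 17 and FD on 14.

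The ratios of a set add up to its course relative to day 0, and in such a sum the sample of each day between enters its 2 arrays with opposite signs. AGL24 stood at 71.5%, 65.2%, 54.4% and 58.1% of its day 0 level on day 1 in sets 1 to 4, and at 52.6%, 43.8%, 37.1% and 31.3% on day 2. The day 2 sum averaged -0.39 ± 0.097, a fall to 40.4% of day 0 (adjusted p = 0.0461, against 0.713% of features called lower), and this call was lost without any 1 set and with arrays scaled (adjusted p = 0.110). By day 3 the sets had spread out, with 56.2%, 47.2%, 15.2% and 23.7% left in sets 1 to 4, and on day 4 they stood at 23.7%, 47.8%, 10.6% and 13.5%. The day 3 mean of -0.50 ± 0.26 had an adjusted p of 0.170, where 0.0873% of features were called lower, and the day 4 mean of -0.70 ± 0.29 had an adjusted p of 0.0844, where 0.646% were. As sums of the interval coefficients of the 20-array fit, day 3 and day 4 passed (adjusted p = 0.0168 and 0.00325, and 0.0403 and 0.0104 with the set as a block).

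On average FD reached most of its summed log change within 1 day, but the sets differed. Set 2 stood at -0.51 on both day 1 and day 5, and set 3 at -0.30 and -0.70. It stood at 44.1%, 30.8%, 50.5% and 37.8% of day 0 on day 1 in sets 1 to 4, and at 48.0%, 39.8%, 54.9% and 33.3% on day 3. In between, on day 2, the sets stood at 29.9%, 40.8%, 54.6% and 43.0%, lower than on day 1 in set 1 and higher in the others. The ranges of day 3 and day 1 overlapped in part, and set 4 was lower on day 3 than on day 1. On day 4 all sets were below their day 3 values, at 19.5%, 34.7%, 32.2% and 27.2%. The sum was -0.39 ± 0.11 on day 2 (adjusted p = 0.0551), -0.36 ± 0.095 on day 3 (adjusted p = 0.0837) and -0.56 ± 0.11 on day 4, which passed (adjusted p = 0.0312). As sums of interval coefficients, day 2 and day 3 passed as well (adjusted p = 0.00392 and 0.0271). When the set was a block, day 2 passed (adjusted p = 0.0150) and day 3 did not (adjusted p = 0.0687). The day 4 call was lost without any 1 set, with adjusted p between 0.112 and 0.170.

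**Figure D2:**
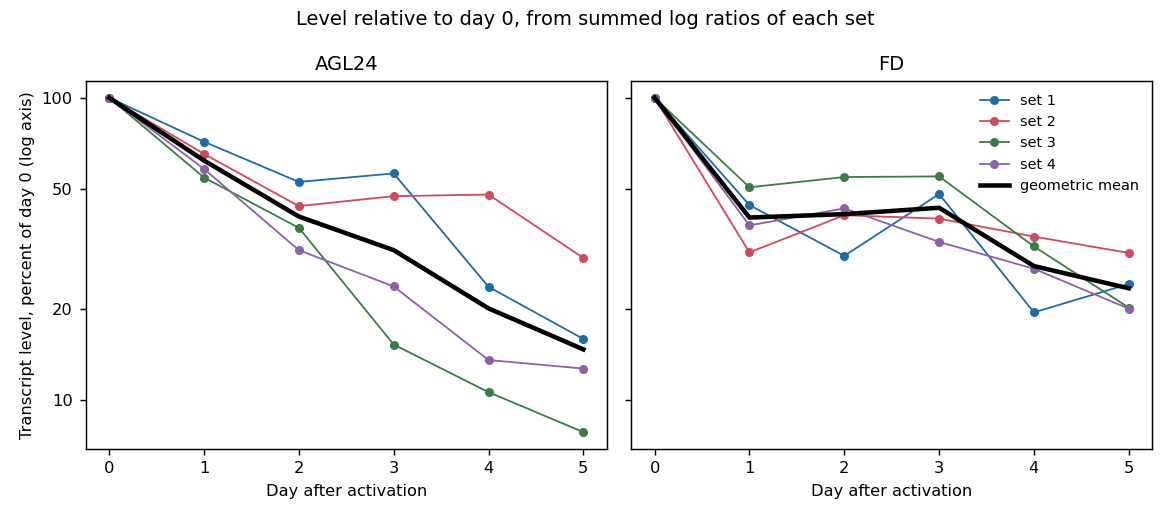
Transcript level of AGL24 (left) and FD (right) by day after activation, as percent of day 0 on a log axis, from the summed log ratios of each set; coloured lines are the 4 sets and the black line is their geometric mean. The AGL24 mean is lower on each day than on the day before, but sets 1 and 2 are slightly higher on day 3 than on day 2 and the sets spread out from day 3, while FD drops to 40.1% on day 1, stands at 43.2% on day 3 and ends at 23.4%.

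By day 5 both genes had fallen. AGL24 stood at 15.9%, 29.5%, 7.8% and 12.7% of its day 0 level in sets 1 to 4, lowest in set 3 and highest in set 2. The sum of -0.83 ± 0.24 is a 6.81-fold lower level (95% interval 3.68 to 12.6, adjusted p = 0.0318). FD stood at 24.2%, 30.6%, 20.2% and 20.0%, a narrower range than that of AGL24. Its sum of -0.63 ± 0.087 is a 4.28-fold lower level (95% interval 3.16 to 5.79, adjusted p = 0.0163). Both genes were thus called lower, where 1.3% of 28615 features were. Since the 2 genes were chosen with earlier results of these data known, this count describes them and is no independent evidence. From the lowest value up, AGL24 ranked at place 260 and FD at place 473. Without any 1 set both calls were lost (adjusted p between 0.0985 and 0.149 for AGL24 and between 0.0716 and 0.104 for FD), and with 3 sets 0 features of the array were called by limma, with 3620 to 4699 at an unadjusted p under 0.05.

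For FD the first day differed from the later ones by the test, and for AGL24 the same difference did not pass. The change of FD from day 0 to day 1 less the mean of its 4 later intervals was -0.29, -0.51, -0.20 and -0.35 in sets 1 to 4. It was negative in every set, with a mean of -0.34 (95% interval -0.45 to -0.22, adjusted p = 0.00173), where 2.33% of features were called negative. Without set 2 the difference was -0.30 and no longer passed (adjusted p = 0.0800). The day 1 sample of a set enters its first and second interval with opposite signs, while the fit takes the arrays as independent. A deviant day 1 sample would therefore move this difference. The first interval held 62.9% of the summed log change of FD and the interval from day 3 to day 4 held 30.6%. For AGL24 the same difference was 0.02, -0.10, -0.05 and -0.07, with a mean of -0.05 (95% interval -0.20 to 0.09, adjusted p = 0.755). The first interval of AGL24 held 25.0% of its summed log change, and the others held between 13.4% and 23.1%.

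Set by set, the change of FD was compared with that of AGL24 on the same arrays by an exact two-sided permutation of signs, in which 4 sets cannot give a p below 0.13. From day 0 to day 1 FD was lower than AGL24 in 4 of 4 sets, by -0.19 ± 0.12 on average (exact p = 0.13, adjusted over 6 comparisons 0.375). From day 1 to day 2 the difference was 0.20 ± 0.16, with FD lower in 1 of 4 sets (exact p = 0.25, adjusted 0.5). From day 3 to day 4 it was 0.00 ± 0.11 (exact p = 1). For day 5 against day 0 the FD sum lay above the AGL24 sum in 4 of 4 sets, by 0.20 ± 0.16 (exact p = 0.13, adjusted 0.375). With this test on 4 sets none of these differences could pass a threshold of 0.05.

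The probes also differed in their response to the dyes. The dye coefficient of FD was 0.07 (adjusted p = 0.0171), against a median size of 0.034 over all features, while that of AGL24 was -0.01 (adjusted p = 0.834). FD averaged -0.05 over the 10 arrays with the later day in Cy5 and -0.20 over the 10 with it in Cy3, and AGL24 averaged -0.18 and -0.16. From day 0 to day 1 FD was at -0.36 and -0.30 with the later day in Cy5 and at -0.51 and -0.42 with it in Cy3, lower under both. The scatter around the fit was 0.128 for AGL24 and 0.0981 for FD, against a median of 0.0873 over all features, and the number of arrays limits the precision.

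The flowering genes listed beside AGL24 and FD were mostly without a named probe. Of 80 genes in lists of florigen partners, group A bZIP genes, flowering MADS-box genes, floral meristem identity genes and SPL and AP2-like regulators, 12 were measured, and FT, TFL1, SOC1, SVP, FUL and LFY are not analysed here. By day 5, 4 of the 12 had fallen and 0 had risen, with a median of -0.33 against -0.003 over all features, of which 1.3% were called lower and 1.57% higher. From day 0 to day 1, 3 had fallen and 1, UFO, had risen, where 2.17% of all features were called lower and 1.15% higher. The lists were chosen with earlier results of these data known, so these counts describe the listed genes and test no enrichment. AGL72, AGL71 and AGL42 are MADS-box relatives of SOC1. AGL72 stood at -0.34 ± 0.13 from day 0 to day 1 (adjusted p = 6.39e-04) and -1.10 ± 0.098 by day 5 (adjusted p = 0.00909), AGL71 at -0.22 ± 0.15 (adjusted p = 0.0170) and -0.97 ± 0.14 (adjusted p = 0.0137). AGL42 stood at -0.26 ± 0.11 on the first day (adjusted p = 0.00895) and -0.59 ± 0.25 by day 5 (adjusted p = 0.0749).

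The other 2 flowering MADS-box genes measured were not called from day 0 to day 1 or by day 5. AGL19, a promoter of flowering after cold, measured 0.14 ± 0.051 from day 0 to day 1, higher in all 4 sets (adjusted p = 0.0572), and -0.08 ± 0.090 by day 5 (adjusted p = 0.519). AGL79 measured 0.02 by day 5 (adjusted p = 0.902).

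EEL, a bZIP gene of seeds from the same subgroup as FD, was called in a different interval from FD. It measured -0.13 ± 0.045 from day 0 to day 1, lower in all sets without passing (adjusted p = 0.0870), and then fell, with -0.23 ± 0.043 from day 1 to day 2 (adjusted p = 0.00634), the interval in which FD measured 0.01. By day 5 it had fallen 3.06-fold (-0.49 ± 0.15, adjusted p = 0.0454). The other measured gene of the subgroup, bZIP15 (AT5G42910), stood at -0.02 by day 5 (adjusted p = 0.913). ATC, a relative of TFL1 and the 1 florigen partner measured, ran from -2.0 to 2.0 between sets within a single interval, both limits of the scale, and gave no call. Of the floral meristem identity genes PUCHI had fallen to -0.94 by day 5 (adjusted p = 0.00904) and UFO measured -0.18 (adjusted p = 0.382). PUCHI was called lower from day 1 to day 2 (-0.48, adjusted p = 0.00755 by limma), as EEL was. After its rise on the first day, UFO was called lower from day 3 to day 4 (-0.19, adjusted p = 0.0427). It was called lower again from day 4 to day 5 (-0.23, adjusted p = 0.0186). Neither SNZ nor SMZ, AP2-like repressors of flowering, was called in any interval.

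**Figure D3:**
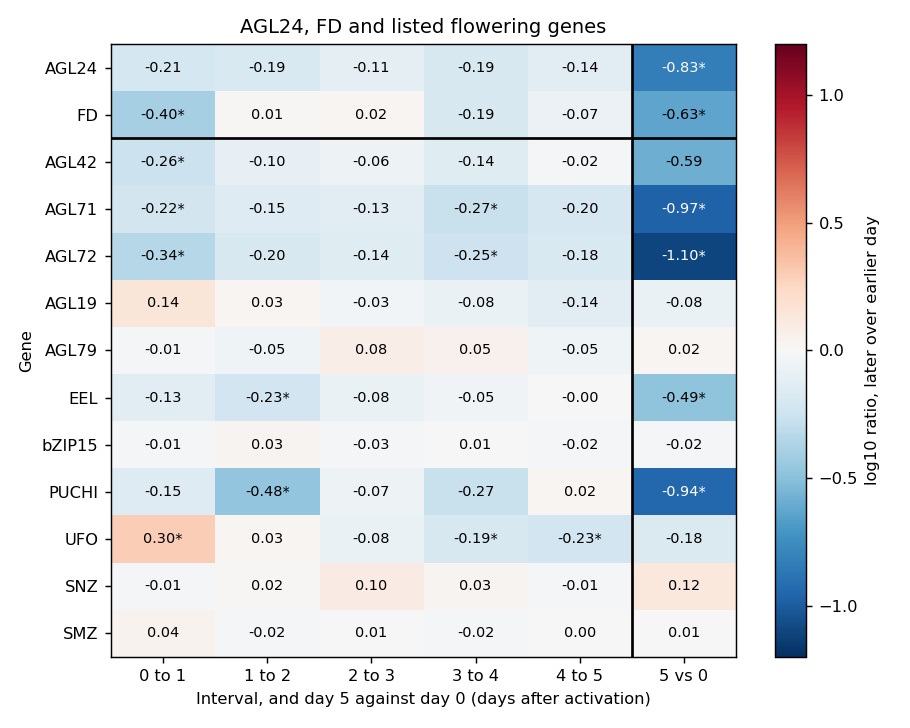
Mean log10 ratio of the later over the earlier day for AGL24 and FD (above the line) and the measured genes of 4 flowering lists (below it), in each interval and for day 5 against day 0 (right of the line); blue is lower and red higher on the later day, and an asterisk marks an adjusted p under 0.05. ATC is left out because its values reach the limits of the scale. FD is called in the first interval, as AGL42, AGL71 and AGL72 are, and in the day 5 column. AGL24 is called only in the day 5 column of the 6 shown.

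The likeness of FD and AGL24 depended on the measure. Over the 20 arrays, after removal of the dye coefficient, the Pearson correlation of FD with AGL24 was 0.368, a description over arrays that share samples. Over the 5 interval means it was 0.704. Among 28259 other features AGL24 ranked at place 3920 in likeness to FD over the 20 arrays. The named genes most like FD were AT5G65130 (r = 0.914), AT5G25200 (r = 0.895), AT4G11190 (r = 0.884), AT5G07030 (r = 0.871) and AT3G11580 (r = 0.859). Of these, AT4G11190 and AT3G11580 had first-day changes of -0.71 and -0.27 and day 5 sums of -0.45 and -0.44 (adjusted p = 0.0547 and 0.0819), while AT5G25200 and AT5G07030 stood at 0.10 and -0.01 by day 5.

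The named genes most like AGL24 were AT1G49210 (r = 0.812), tny (r = 0.811), an AP2-domain gene, AT2G47850 (r = 0.801), AT5G15570 (r = 0.798) and AT4G27130 (r = 0.789). Their day 5 sums lay between -0.27 and 0.05, against -0.83 for AGL24. Pearson's correlation leaves out the mean ratio of each gene and with it the net change. Likeness over arrays therefore says nothing about a like net course. AGL42, with r of 0.606 to AGL24 and 0.606 to FD, was nearer to both than they were to each other. AGL72 had r of 0.359 to AGL24 and 0.482 to FD over the 20 arrays. Over the 5 interval means AGL72 had r of 0.857 to AGL24 and 0.962 to FD, and AGL42 had 0.815 and 0.866.

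**Figure D4:**
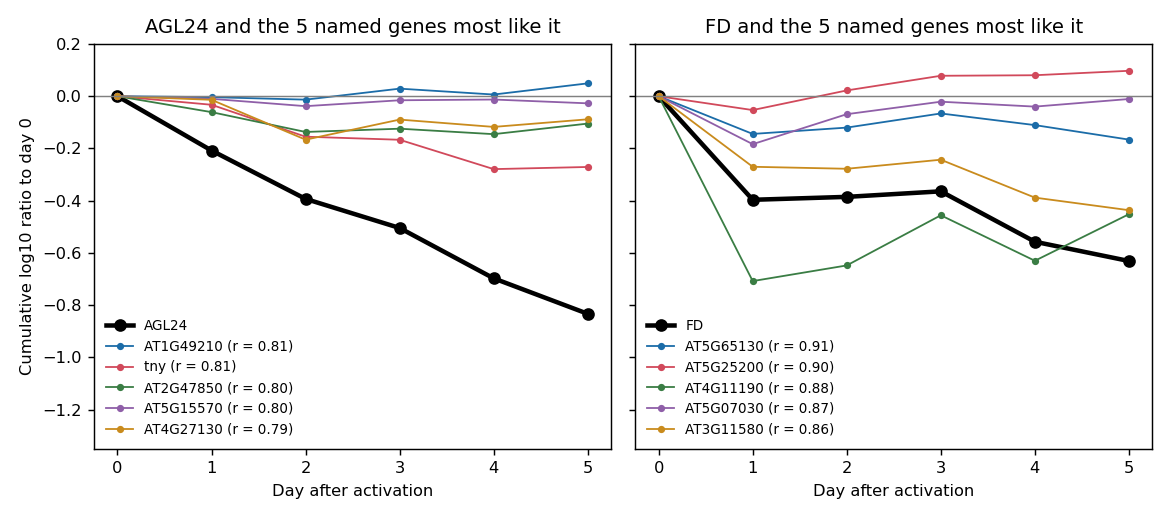
Cumulative mean log10 ratio to day 0 of AGL24 (left) and FD (right), in black, with the 5 named genes whose 20 dye-corrected ratios correlate best with each; r is Pearson's correlation over 20 arrays. The genes most like AGL24 stay between -0.27 and 0.05 on day 5, far above AGL24, and 2 of the genes most like FD, AT4G11190 and AT3G11580, also end well below 0.

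None of the measured neighbours of AGL24 and FD on chromosome 4 named here was called by limma, and those closest to each gene had these values. The nearest measured genes on each side of AGL24, AT4G24530 and AT4G24550, stood at 0.01 ± 0.069 and -0.10 ± 0.071 by day 5 (adjusted p = 0.930 and 0.366). Beside FD, AT4G35880 and AT4G35905 stood at 0.11 ± 0.032 and -0.12 ± 0.076 (adjusted p = 0.257 and 0.309).

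Some markers of meristem and floral tissue were called over the same days. Of 12 shoot meristem and boundary markers 3 were measured, and by day 5 CLV3, the stem-cell peptide gene, had fallen to -0.48 (adjusted p = 0.0285) while LAS was at -0.01 (adjusted p = 0.967) and LOB at -0.14 (adjusted p = 0.323). CLV3 measured 0.12 from day 0 to day 1 (adjusted p = 0.386), the interval in which FD fell. Of 10 floral organ markers 6 were measured, and 5 had risen by day 5, where 1.57% of all features were called higher. The median of the 6 was 0.64, and INO, at 0.06, was not called (adjusted p = 0.681 by limma). The marker lists, too, were chosen with earlier results of these data known, so such counts test no enrichment. Of 5 vascular markers SWEET11 alone was measured, at -0.05 from day 0 to day 1 (adjusted p = 0.831) and -0.56 by day 5 (adjusted p = 0.0376). Of 4 stomatal lineage markers 2 were measured and MUTE had risen by day 5 (adjusted p = 0.0191). Of 5 photosynthetic markers 2 were measured and 0 were called by limma for day 5 against day 0. One of them, RCA, was called higher from day 4 to day 5 (0.20 ± 0.051, adjusted p = 0.0244 by limma). The part of changing cell types in the changes of AGL24 and FD was not tested, and ratios give no level by which the presence of a tissue could be checked.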

How the data were processed

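Amplified RNA was coupled to Cy3 or Cy5 and hybridised to two-colour arrays, per the labels' protocols. The authors deposited 1 log ratio per probe and array. How background was corrected, how arrays were normalized, the log base, the numerator and the genome build: not given in the sources used here. Since the authors' deposited log ratios stop at 2 and -2, they were taken for log10 values. Array medians lay between -0.00333 and 0.0120. Over all probes, arrays of 1 interval with opposite dyes correlated at a median of 0.588 as deposited (20 of 20 pairs above 0) and 0.0835 without values at the limits (14 of 20). Pairs with the same dyes had medians of 0.638 and 0.303. After each probe's mean over 20 arrays was subtracted, which itself lowers correlations, the medians were -0.116 and -0.251 for opposite dyes and -0.0125 and 0.0819 for the same dyes. The ratios were read as Cy5 over Cy3, and the sign was turned where the later day was in Cy3.

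Of 30741 spots, 547 controls or unannotated spots were left out. The platform annotation gave 1 gene for 18740 probes, several for 1 and none for 11453, and 18645 were matched to RefSeq genes of TAIR10.1, used for names and gene order. Probes of a gene were averaged, and a feature needed 3 of 4 arrays in every interval. Intervals and the first-day difference were tested with limma 3.58.1 (R 4.3.3) on 20 arrays with 5 interval coefficients and 1 dye coefficient. Days 2 to 5 against day 0 were tested on the sums of 4 sets, at least 3 needed. All limma tests were two-sided, and p-values were adjusted over all features (Benjamini-Hochberg, threshold 0.05), and the fits were tested on simulated data. The labels make a number a shared tissue set. Residuals of the same set in intervals without a common day had a median correlation of -0.0212, and with a common day -0.0909. The gene members and lists were chosen with earlier results of these data known. Named were AGL24, FD, listed genes and the 5 named genes most correlated with each.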

Additional observations from a re-analysis of the deposited data

Results flagged for a closer look

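The change of FD from day 0 to day 1 differed from the mean of its 4 later intervals by -0.34, a difference between time points that passed its test (adjusted p = 0.00173 by limma, negative in 4 of 4 sets). Without set 2 it was -0.30 with an adjusted p of 0.0800. The intervals before and after day 1 share the day 1 sample of each set, which the fit does not take into account.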

How the results depend on the processing

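Under alternatives other than a left-out set, 86 of 100 AGL24 and FD results kept their direction and side of the threshold, 12 passed newly, 2 were lost and 0 turned. Newly passing were the day 2 sum of FD at -0.39 (replicate block, interval coefficients, values at the limits left out), the day 3 sums of AGL24 at -0.50 (block, coefficients) and of FD at -0.36 (coefficients, limits left out), the day 4 sum of AGL24 at -0.70 (block, coefficients, limits left out), and FD from day 3 to day 4 at -0.21 with arrays scaled and -0.19 with limits left out. Lost were the day 2 sum of AGL24 with arrays scaled (-0.39) and FD from day 0 to day 1 at -0.40 on its interval alone.

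Without 1 set in turn, the day 2 sum of AGL24 ran from -0.43 to -0.36 and its day 5 sum from -0.93 to -0.74, while FD ran from -0.59 to -0.51 on day 4, from -0.67 to -0.61 on day 5 and from -0.36 to -0.30 for the first-day difference. FD, without a call in these intervals, ran from -0.0344 to 0.0598 after day 1 (turned without sets 2 and 3), from -0.0288 to 0.0656 after day 2 (turned without set 1) and from -0.118 to 0.00721 after day 4 (turned without set 3), and from -0.22 to -0.14 after day 3.

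Over all features 950, 329, 120, 387 and 217 were called in the 5 intervals and 821 by day 5. With the replicate block 605, 147, 57, 228 and 114 were called in the intervals, and on each interval alone 0, 5, 6, 19 and 0 by limma (3537 and 1452 at an unadjusted p under 0.05 in the first and last). Without a dye coefficient 214 were called from day 1 to day 2. With arrays scaled 138, 658 and 93 were called in the intervals from day 1, day 3 and day 4, and with limits left out 1573 by day 5. Without 1 set the counts ran from 195 to 1040, 0 to 341, 0 to 193, 107 to 337 and 35 to 99 in the intervals, and 0 by day 5. The differences between FD and AGL24 moved by less than their SD.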
